A study of Mus musculus with 6 samples.

Results

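Synovial cells of arthritic Notch3 knockout mice were compared with those of arthritic wild-type mice, class by class, to separate a different mix of cells from different levels within a kind of cell. The synovium is the thin tissue that lines a joint. It was taken from the knees of 10 mice a group, pooled, dissociated with enzymes and sorted for living cells only, and 7000 cells were loaded for each library of the 10x Genomics 3' method, in which a unique molecular identifier (UMI) marks each captured transcript. Mice of both groups had received serum of K/BxN mice, whose autoantibodies inflame the joints of recipients, and the groups differed in genotype, Notch3-/- against wild type. Strain, sex, age, the day after serum transfer and the kind of Notch3 allele are not given in the sources used here. All cells with at most 10% mitochondrial UMIs were used: 2656 arthritic knockout and 2396 arthritic wild-type cells, 5052 of the 18077 cells of the series. The other 4 libraries, arthritic mice given anti-Notch3 or an isotype control antibody and healthy knockout and wild-type mice, serve only as context.

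Notch3 is a receptor that is cut on contact with a ligand on a neighbouring cell and then carries its intracellular part to the nucleus. It is best known from the mural cells that wrap small vessels, and in the synovium it is also found in the fibroblasts nearest to vessels. Synovial fibroblasts fall into a lining layer at the joint space, rich in lubricin, and a sublining layer around vessels. In K/BxN serum arthritis, immune complexes draw neutrophils and monocytes into the joint, and fibroblasts and macrophages release enzymes that erode cartilage and bone.

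Each side is 1 pooled library, so no test could be made, and the spread between mice is unknown. Levels are in CPM, the UMIs of a gene scaled to the summed UMIs of the class in that library. Their intervals are exact 95% Poisson intervals, those of cell shares exact 95% binomial ones, and both cover counting error only. The libraries were of like depth, with 11862566 knockout and 11898962 wild-type UMIs and medians of 4316.5 and 4061 UMIs per cell. Within classes the depths were less alike: medians were 4523 knockout and 6204 wild-type UMIs in fibroblasts, 4519.5 and 2748 in myeloid cells, and 1841.5 and 5147 in endothelial cells. Red-cell and B-cell markers stood apart: over all cells the haemoglobin gene Hbb-bs was at 1067 CPM in knockout and 0.168 CPM in wild-type cells, and 5 of 6 measured B-cell markers were 2-fold higher in knockout cells, as were 5.08% of the 11665 genes measured over all cells.

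Notch3 was all but missing from the knockout library. Over all cells it had 3 UMIs or 0.253 CPM (interval 0.0522 to 0.739) in knockout cells, against 66 UMIs or 5.55 CPM (4.29 to 7.06) in wild-type cells. Mural cells had 2 UMIs in knockout and 30 UMIs in wild-type cells. Fibroblasts had 1 UMI in knockout and 25 UMIs in wild-type cells. No Notch3 UMI was found in myeloid, endothelial or T and NK cells of either library. The gene lies at chr17:32120820-32166852 on the minus strand (mm10, GENCODE M21, protein coding). Which part of it the allele removes is not given, and whether the 3' tag lies within it cannot be told.

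The mix of cells differed between the libraries. Fibroblasts made up 65.0% of knockout cells (63.2 to 66.8; 1727 cells), against 43.4% of wild-type cells (41.4 to 45.4; 1040 cells). Myeloid cells, the macrophages, monocytes and dendritic cells, made up 17.8% of knockout cells (16.3 to 19.3; 472 cells) and 42.5% of wild-type cells (40.5 to 44.5; 1018 cells). Endothelial cells were at 9.04% of knockout cells (7.97 to 10.2; 240 cells) and 5.63% of wild-type cells (4.74 to 6.63; 135 cells). The intervals of these 3 classes do not overlap between the libraries. The isotype library, also arthritic and with Notch3 not targeted, held 68.3% fibroblasts and 19.6% myeloid cells. That puts it nearer to the knockout than to the wild-type library on both shares.

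Smaller classes also differed in share. T and NK lymphocytes were 1.58% of knockout cells (1.14 to 2.13) and 3.05% of wild-type cells (2.40 to 3.82). Mural cells were 1.24% of knockout cells (0.857 to 1.74) and 0.501% of wild-type cells (0.259 to 0.873). B cells numbered 80 of the knockout cells, 3.01% (2.40 to 3.73), and 1 of the wild-type cells, 0.0417% (0.00106 to 0.232). A cluster led by haemoglobin genes held 8 knockout cells and 0 wild-type cells, where a count of 0 allows a share of up to 0.154%. B and red-cell precursors are abundant in bone marrow; whether marrow entered a pool was not tested. A cluster led by proliferation genes held 26 cells of each library and was left unnamed.

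The cluster led by the neutrophil genes Camp, Ngp, S100a9 and S100a8 held 28 knockout and 91 wild-type cells. It was 1.05% of knockout cells (0.702 to 1.52) and 3.80% of wild-type cells (3.07 to 4.64), but its cells were not alike. In knockout cells of the cluster, S100a8 and S100a9 together took a median of 12.6% of a cell's UMIs, and in wild-type cells 0.325%. The fibroblast markers took medians of 0.355% in knockout and 1.76% in wild-type cells of it. Counting instead every cell with at least 5% of its UMIs from the pair, a definition made after seeing the data, gave 0.866% of knockout and 0.209% of wild-type cells. The order of the neutrophil shares thus reverses with the definition, and no direction is given for neutrophils.

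**Figure D1:**
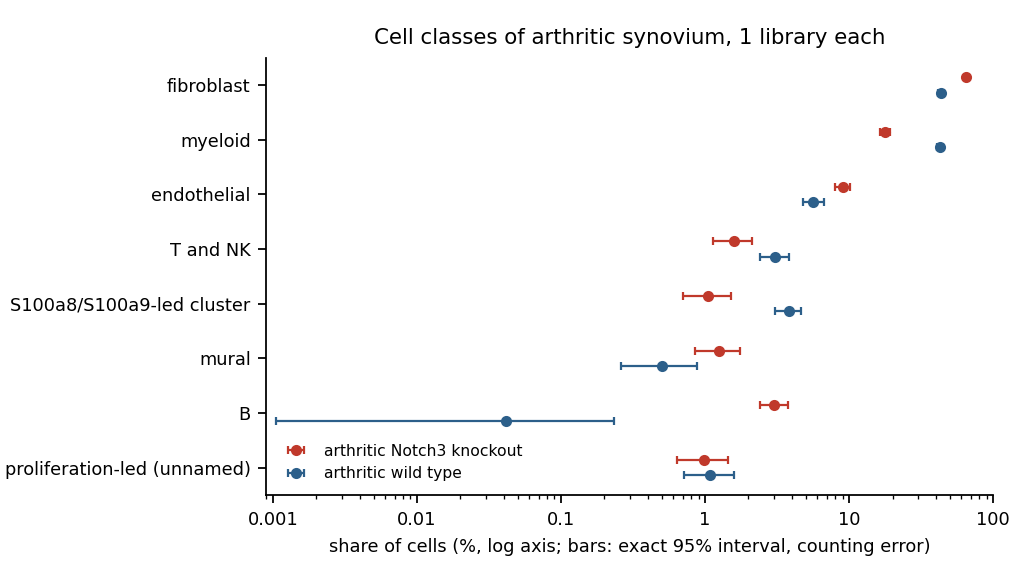
Share of cells in each class (percent, log axis) in the arthritic Notch3 knockout library (red, upper point) and the arthritic wild-type library (blue, lower point); bars are exact 95% binomial intervals for counting error. Fibroblasts are at 65.0% and 43.4%, myeloid cells at 17.8% and 42.5%, and B cells at 3.01% and 0.0417%.

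Fibroblasts of arthritic knockout joints had lower levels of interferon-stimulated genes, of collagens and the enzymes that crosslink them, of matrix-degrading enzymes and of acute-phase genes than wild-type fibroblasts, and higher levels of several sublining genes. A gene counted as 2-fold apart among the 10075 genes with at least 50 UMIs over both libraries. Of these, 4.38% were 2-fold higher and 5.69% were 2-fold lower in knockout fibroblasts, 10.1% in all, and the median log2 ratio of knockout over wild type was -0.06. The counts of list members below are to be read beside these shares. Markers of other cells in fibroblasts were few: Hbb-bs was at 12.9 CPM in knockout and 0.285 CPM in wild-type fibroblasts, and the 7 myeloid markers summed to 93.6 CPM in knockout and 143 CPM in wild-type fibroblasts, with no marker at 0; their part was not tested. In such data, fewer cells in a state and less RNA per cell in it cannot be told apart by a level of the whole class.

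Of 26 interferon-stimulated genes measured, 18 were 2-fold lower and 1 was 2-fold higher in knockout fibroblasts, with a median log2 ratio of -2.21. Isg15, a ubiquitin-like modifier, was at 30.5 CPM (26.8 to 34.5) in knockout and 279 CPM (267 to 291) in wild-type fibroblasts. Irf7, a transcription factor that amplifies interferon production, was at 11.9 CPM (9.63 to 14.5) in knockout and 118 CPM (110 to 127) in wild-type fibroblasts. Bst2, the surface protein tetherin that holds budding virus back, was at 62.6 CPM (57.3 to 68.2) in knockout and 595 CPM (577 to 613) in wild-type fibroblasts. Each of these differences was close to 3 or more on the log2 scale, at -3.19, -3.31 and -3.25. Ifi44 had 1 UMI in knockout fibroblasts and was at 30.9 CPM (26.96 to 35.3) in wild-type fibroblasts. Oas1a, a sensor of double-stranded RNA, was at 1.10 CPM (0.504 to 2.09) in knockout and 20.7 CPM (17.4 to 24.3) in wild-type fibroblasts. Some members did not share the direction. Iigp1, a GTPase that also answers to interferon gamma, was at 105 CPM (98.04 to 112) in knockout and 47.2 CPM (42.2 to 52.6) in wild-type fibroblasts, and was the member 2-fold higher. Gbp2, with a log2 ratio of -0.16, and the chemokine Cxcl10, with 0.72, were within 2-fold.

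The promoters of 5 lower members are shown because each holds a sequence that recurs in this list; all 5 were picked from the windows with a match. The interferon-stimulated response element is a site through which IRF factors act, and its core was searched as GAAANNGAAA on both strands in RefSeq promoter windows (GRCm38.p6, the mm10 assembly; 250 bases before to 50 after each start). Capitals mark matches, and runs of capitals longer than the motif are overlapping matches. A TTTCNNTTTC run is the same motif on the other strand. Sequences are 5' to 3' along the gene, at chr4:156200769-156201068 (minus strand) for Isg15, chr5:120907476-120907775 (minus) for Oas1a, chr19:34583279-34583578 (plus) for Ifit3, chr8:71537423-71537722 (minus) for Bst2 and chr12:26456403-26456702 (minus) for Rsad2.
Isg15: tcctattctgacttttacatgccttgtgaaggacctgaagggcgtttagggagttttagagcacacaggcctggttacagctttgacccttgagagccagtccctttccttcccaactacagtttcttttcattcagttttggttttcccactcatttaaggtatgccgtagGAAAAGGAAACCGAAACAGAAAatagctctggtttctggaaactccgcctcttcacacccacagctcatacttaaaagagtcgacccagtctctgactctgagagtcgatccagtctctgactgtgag
Oas1a: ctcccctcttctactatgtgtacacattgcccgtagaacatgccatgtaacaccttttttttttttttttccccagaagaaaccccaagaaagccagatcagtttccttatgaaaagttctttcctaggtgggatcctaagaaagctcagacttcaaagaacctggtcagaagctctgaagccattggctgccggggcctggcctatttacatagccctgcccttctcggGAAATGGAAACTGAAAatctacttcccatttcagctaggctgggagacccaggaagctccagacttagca
Ifit3: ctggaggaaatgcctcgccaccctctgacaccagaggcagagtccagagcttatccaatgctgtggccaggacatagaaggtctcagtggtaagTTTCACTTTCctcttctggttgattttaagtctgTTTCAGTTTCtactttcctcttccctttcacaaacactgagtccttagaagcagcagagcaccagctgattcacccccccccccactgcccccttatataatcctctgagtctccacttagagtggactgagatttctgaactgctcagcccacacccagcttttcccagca
Bst2: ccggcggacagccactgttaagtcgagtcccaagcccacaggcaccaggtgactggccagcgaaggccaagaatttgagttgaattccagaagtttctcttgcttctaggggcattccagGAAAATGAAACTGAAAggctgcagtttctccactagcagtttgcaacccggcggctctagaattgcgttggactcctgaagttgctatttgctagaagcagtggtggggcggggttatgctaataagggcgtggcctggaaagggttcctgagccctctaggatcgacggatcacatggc
Rsad2: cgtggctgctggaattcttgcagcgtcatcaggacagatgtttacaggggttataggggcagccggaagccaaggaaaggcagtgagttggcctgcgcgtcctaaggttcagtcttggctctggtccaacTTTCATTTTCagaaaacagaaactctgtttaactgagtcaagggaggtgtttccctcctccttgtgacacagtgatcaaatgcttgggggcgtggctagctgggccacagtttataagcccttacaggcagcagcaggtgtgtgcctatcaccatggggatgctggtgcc
The motif was in 9 of 14 windows (64.3%) of the 13 matched genes among the 18 lower members. It was in 6 of 10 windows (60.0%) of the other members, those not 2-fold lower or not measured in fibroblasts. In the whole list it was in 15 of 24 windows (62.5%). It was in 3.44% of all 32851 promoter windows and in 0 of 12 windows of the collagen list. The windows of Ifi44, Irf7, Oasl2 and Xaf1, all lower members, held no match. A match is a description of the letters and not a measured binding site.

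The MHC class I list, the molecules that show peptides to T cells, had 7 of 13 measured members 2-fold lower and 0 higher in knockout fibroblasts, with a median of -1.15. B2m, the shared light chain, was at 1376 CPM (1350 to 1401) in knockout and 3544 CPM (3500 to 3589) in wild-type fibroblasts. H2-K1 was at 269 CPM in knockout and 599 CPM in wild-type fibroblasts, while H2-D1 was within 2-fold at 995 and 1276 CPM. The H2 genes are near-identical in parts, so counts of single members such as H2-Q7 are uncertain.

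Of 21 measured genes for fibrillar collagens and their crosslinking, 13 were 2-fold lower and 0 higher in knockout fibroblasts, with a median log2 ratio of -1.10. Lox, the lysyl oxidase that crosslinks collagen, was at 68.5 CPM (62.9 to 74.4) in knockout and 654 CPM (635 to 673) in wild-type fibroblasts. Postn, periostin of injured and loaded matrix, was at 146 CPM (137 to 154) in knockout and 605 CPM (586 to 623) in wild-type fibroblasts. Cthrc1, a secreted protein of injured tissue, was at 21.7 CPM in knockout and 301 CPM in wild-type fibroblasts. The abundant collagens differed less. Col3a1 was at 5689 CPM (5638 to 5741) in knockout and 12180 CPM (12099 to 12262) in wild-type fibroblasts, a log2 ratio of -1.10. Col1a1 was at 3065 CPM (3027 to 3104) in knockout and 6917 CPM (6856 to 6979) in wild-type fibroblasts. Col1a2 at -0.71, Fn1 at -0.59 and Col14a1 at -0.04 were within 2-fold. The 20 basement-membrane and microfibril genes, by comparison, had 2 members higher, 1 lower and a median of -0.05.

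Of 18 measured genes for matrix degradation and bone resorption, 10 were 2-fold lower and 0 higher in knockout fibroblasts, with a median of -1.08. Mmp3, stromelysin, was at 65.4 CPM (60.0 to 71.2) in knockout and 1219 CPM (1193 to 1245) in wild-type fibroblasts. Mmp13, a collagenase of cartilage, had no UMI in knockout fibroblasts and was at 287 CPM (275 to 300) in wild-type fibroblasts, which is at least 782-fold lower against a floor of 3 UMIs over the knockout class. Mmp14, a membrane-bound activator of other metalloproteinases, was at 50.8 CPM in knockout and 247 CPM in wild-type fibroblasts. Tnfsf11, the osteoclast-inducing ligand RANKL, was at 0.612 CPM (0.199 to 1.43) in knockout and 30.2 CPM (26.3 to 34.6) in wild-type fibroblasts. Not every member followed. The aggrecan-cleaving enzyme Adamts5 was within 2-fold, at 230 CPM in knockout and 208 CPM in wild-type fibroblasts. Among 5 metalloproteinase inhibitors, Timp1 was lower, at 269 CPM in knockout and 1251 CPM in wild-type fibroblasts, and Timp3 was higher, at 399 and 96.0 CPM.

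Acute-phase genes had 6 of 11 measured members 2-fold lower and 0 higher in knockout fibroblasts, with a median of -1.76. Saa3, a local serum amyloid, was at 7.22 CPM (5.50 to 9.32) in knockout and 1471 CPM (1443 to 1500) in wild-type fibroblasts. Of the 59 Saa3 UMIs in knockout fibroblasts, 51 lay in 1 cell. Slpi, a protease inhibitor, was at 3.06 CPM (1.98 to 4.52) in knockout and 730 CPM (710 to 750) in wild-type fibroblasts, and haptoglobin, Hp, at 6.61 CPM (4.97 to 8.63) and 1005 CPM (982 to 1029). Complement C3 was within 2-fold, at 889 CPM in knockout and 515 CPM in wild-type fibroblasts.

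Chemokines and cytokines went both ways. Among 5 neutrophil-attracting chemokines, 2 were higher and 2 lower in knockout fibroblasts: Cxcl5 had 2 UMIs or 0.245 CPM (0.0297 to 0.885) in knockout fibroblasts and was at 237 CPM (225 to 248) in wild-type fibroblasts. Cxcl1, which acts on the same receptor, was at 4850 CPM (4802 to 4898) in knockout and 1477 CPM (1449 to 1506) in wild-type fibroblasts. Among 13 chemokines for monocytes and lymphocytes, 3 were higher and 2 lower. Ccl11, the eosinophil attractant eotaxin, was at 362 CPM (349 to 375) in knockout and 50.2 CPM (45.1 to 55.7) in wild-type fibroblasts. Ccl5, an attractant of T cells, was at 1.59 CPM in knockout and 82.7 CPM in wild-type fibroblasts. Cytokines were 1 higher and 5 lower of 17. Inhba, the activin A chain, was at 24.7 CPM in knockout and 278 CPM in wild-type fibroblasts, whereas Il6 was within 2-fold, at 181 CPM (172 to 191) in knockout and 107 CPM (99.1 to 115) in wild-type fibroblasts.

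Sublining genes outside the gates had 5 of 14 members 2-fold higher and 1 lower in knockout fibroblasts, with a median of 0.85. Cd34, a surface marker of sublining fibroblasts, was at 616 CPM (599 to 633) in knockout and 223 CPM (212 to 234) in wild-type fibroblasts. Myoc, a secreted glycoprotein, was at 342 CPM (330 to 355) in knockout and 39.1 CPM (34.6 to 44.0) in wild-type fibroblasts. The lower member was Cfd, the protease adipsin, at 1.84 CPM in knockout and 32.8 CPM in wild-type fibroblasts. The 12 lining genes had 2 members higher and 1 lower. Genes induced by tissue dissociation moved with the groups too: 5 of 18 were 2-fold higher and 0 lower in knockout fibroblasts, with a median of 0.76. Fos was at 10966 CPM in knockout and 5436 CPM in wild-type fibroblasts, and Junb at 5281 and 2060 CPM. The part of dissociation in the other differences was not tested.

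Notch pathway genes other than Notch3 were within 2-fold in fibroblasts: 0 of 6 measured Notch targets and 0 of 3 receptors and ligands were past it in either direction. Hes1, a repressor switched on by Notch in many tissues, was at 141 CPM in knockout and 121 CPM in wild-type fibroblasts. Notch2 was at 43.8 CPM in each library.

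Among all fibroblast genes with at least 100 UMIs, those with the highest ratios included Ccl11, Myoc, Dlk1, Meox1, Angpt4 and Scg3. Dlk1, an imprinted inhibitor of fat-cell formation, was at 16.2 CPM in knockout and 1.14 CPM in wild-type fibroblasts. The lowest besides Mmp13, Cxcl5, Slpi and Saa3 were Ifi202b, Olfr810, Msmp and Il13ra2. Ifi202b, an interferon-inducible DNA-binding protein, had 0 UMIs in knockout and 300 UMIs in wild-type fibroblasts, at least 116-fold lower. Over all cells it was at 0.0485 CPM in the isotype library and 35.7 CPM in the healthy wild-type library. Il13ra2, a decoy receptor for interleukin 13, had 0 and 108 UMIs, at least 41.9-fold lower. Of the 814 Msmp UMIs in wild-type fibroblasts, 781 lay in 1 cell.

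**Figure D2:**
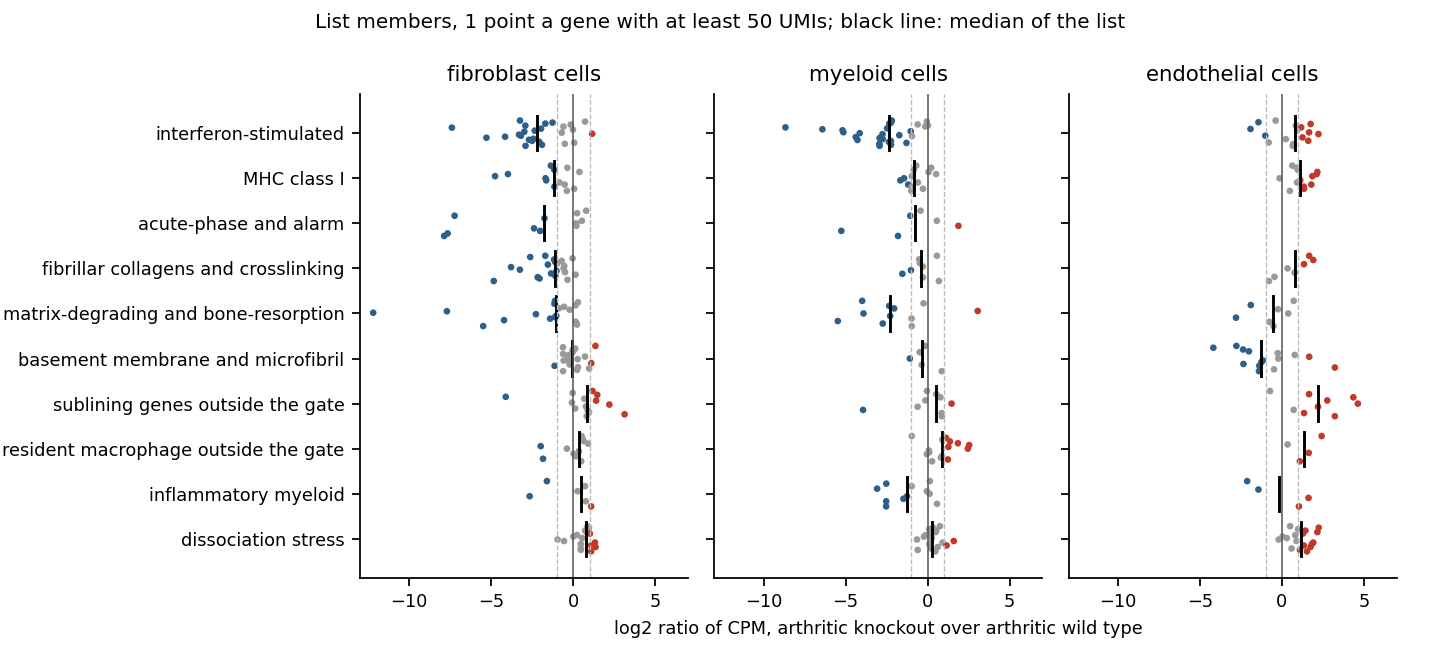
Log2 ratio of CPM, arthritic knockout over arthritic wild type, for each list member with at least 50 UMIs in fibroblasts, myeloid cells and endothelial cells; dashed lines mark 2-fold, red points are 2-fold higher and blue points 2-fold lower in the knockout library, and the black line is the median of the list. Interferon-stimulated genes have medians of -2.21 in fibroblasts and -2.36 in myeloid cells, against 0.76 in endothelial cells.

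For the fibroblast genes given here, shares of cells with a transcript kept their order when depth was made equal. In endothelial cells the order of Isg15 reversed, as given below. After each fibroblast was thinned to 2000 UMIs (1658 of 1727 knockout and 975 of 1040 wild-type cells were deep enough), Isg15 was found in 4.04% of knockout and 19.1% of wild-type fibroblasts; without thinning the shares were 7.18% and 33.9%. Mmp3 was found in 8.50% of knockout and 24.2% of wild-type fibroblasts (14.6% and 35.9% unthinned). Saa3 was found in 0.241% of knockout and 14.1% of wild-type fibroblasts (0.521% and 20.1% unthinned). Ccl11 went the other way, with 24.3% of knockout and 6.46% of wild-type fibroblasts (29.2% and 8.85% unthinned). As a background, endothelial cells, of median depths 1841.5 and 5147 UMIs, were thinned likewise. Mmp3 was in 0 of 107 knockout endothelial cells, which allows a share of up to 3.39%, and in 1.67% of 120 wild-type ones. Saa3 was in 0 of the same 107 knockout and 3.33% of the 120 wild-type endothelial cells. So few knockout endothelial cells cannot set a background for Saa3, because a share as low as 0.241% would lie within what their count allows.

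The fibroblast subtypes were then gated by panels of 4 or 5 genes that are not read out, giving a lining gate, 4 sublining gates named for Dkk2, Pi16, Sfrp4 and Smoc2, a tendon-like and a fibrocartilage-like gate. The Smoc2 gate held 29.5% of knockout fibroblasts (27.3 to 31.7) and 15.96% of wild-type fibroblasts (13.8 to 18.3). The Dkk2 gate held 9.38% of knockout (8.05 to 10.9) and 16.5% of wild-type fibroblasts (14.3 to 18.9). The fibrocartilage-like gate held 1.16% of knockout (0.709 to 1.78) and 7.21% of wild-type fibroblasts (5.71 to 8.96). Intervals overlapped for the lining gate, with 9.84% of knockout and 11.3% of wild-type fibroblasts, and for the Pi16 gate, with 14.1% and 12.7%. Scores within 0.05 of the cut of 0.25 were held by 105 knockout and 55 wild-type fibroblasts.

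By these gates the fibroblast differences lay within subtypes. The level difference of each gene was split exactly into a part from the mix of gates and a part from levels inside them. For the 19 interferon-stimulated genes past 2-fold, the part within gates was over 50% for 19 of 19, with a median of 94.1% of the difference. The medians were 92.6% for the 13 collagen-list genes, 91.9% for the 10 matrix-degrading genes, 93.2% for the 6 acute-phase genes and 93.9% for the 6 sublining genes past 2-fold. The same direction could be read gate by gate. Interferon-stimulated genes were 2-fold lower for 12 of 17 measured members in the Dkk2 gate, where 10.4% of all genes were lower, for 3 of 5 in the Pi16 gate (3.4%), 7 of 9 in the Sfrp4 gate (5.55%), 10 of 15 in the Smoc2 gate (5.17%), 4 of 6 in the lining gate (3.52%), 1 of 1 in the tendon-like gate (6.04%) and 11 of 16 in ungated cells (7.57%). Genes 2-fold higher in knockout cells were 7.93%, 2.79%, 5.08%, 3.88%, 3.04%, 4.69% and 6.83% of all genes measured in these gates, in the same order. Isg15 was at 40.4 CPM in knockout and 554 CPM in wild-type cells of the Dkk2 gate. In the Pi16 gate it was at 17.98 CPM in knockout and 107 CPM in wild-type cells, and in the lining gate at 31.9 and 173 CPM. Mmp14 was lower in knockout cells of all 8 fibroblast gates, the ungated cells counted as 1, with log2 ratios between -3.67 and -1.83. Col3a1 was 2-fold lower in the Pi16 gate, at 4756 CPM in knockout and 12429 CPM in wild-type cells, and in the lining gate, at 884 and 3508 CPM, but not in the Sfrp4 gate, at 7642 and 11550 CPM. Cd34 was higher in knockout cells of the Dkk2 gate, at 581 CPM against 90.3 CPM in wild-type cells, and lower in the lining gate, at 23.5 CPM against 50.1 CPM. 

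Clusters gave another split. Cluster 5, led by Hp, Saa3 and Cxcl5, held 8 knockout and 446 wild-type fibroblasts. Cluster 9, led by Mfap4, H19 and Ptn, held 2 knockout and 154 wild-type fibroblasts. Together they were 10 of 1727 knockout and 600 of 1040 wild-type fibroblasts. They were not of the wild-type library alone: the isotype library had 598 cells in cluster 5 and 448 in cluster 9, and the healthy knockout and wild-type libraries had 13 and 9 cells in both together. With clusters in place of gates, the median part within subtypes was 56.4% for interferon-stimulated genes, 49.9% for the collagen list and 59.3% for matrix-degrading genes. It was 54.5% for acute-phase genes and 35.2% for sublining genes. Several gates held different clusters in each library: the leading cluster of the Dkk2 gate was cluster 0 in the knockout library (48.8% of its cells) and cluster 5 in the wild-type library (79.1%). In the Smoc2 gate 50.7% of knockout cells were of cluster 2 and 53.6% of wild-type cells of cluster 9. The Pi16 and lining gates were mainly of clusters 3 and 1 in both libraries.

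Without clusters 5 and 9, chosen after seeing the data, the remaining 1717 knockout and 440 wild-type fibroblasts were nearer to each other. Genes 2-fold higher in knockout cells were 1.91% and genes 2-fold lower 2.51% of 9198. Interferon-stimulated genes had 2 members higher and 4 lower of 19, with a median of -0.44. The collagen list had 0 higher and 7 lower of 21 and a median of -0.62, and the matrix-degrading list 0 higher and 3 lower of 15 and a median of -0.49. Acute-phase genes were still 5 lower and 1 higher of 10, with a median of -0.73. MHC class I genes were 0 higher and 0 lower of 11, with a median of 0.00. Sublining genes were 1 higher and 1 lower of 14, with a median of 0.08. Clusters were made from these same genes, so closeness inside a cluster is in part built in.

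Levels pooled over the cells outside clusters 5 and 9 still mix several clusters, among them cluster 12, led by Tnn and Acan, with 0 knockout and 26 wild-type cells. Mmp3 was at 61.0 CPM in knockout and 524 CPM in wild-type cells outside clusters 5 and 9, and at 1546 CPM in wild-type cells of those clusters. Lox was at 68.9 CPM in knockout and 154 CPM in wild-type cells outside them, and at 889 CPM in wild-type cells inside. Ccl11 was at 365 CPM in knockout and 121 CPM in wild-type cells outside them, and at 17.0 CPM in wild-type cells inside. Isg15 was at 30.7 CPM in knockout and 39.7 CPM in wild-type cells outside and at 391 CPM in wild-type cells inside. B2m was at 1376 CPM in knockout and 1755 CPM in wild-type cells outside and at 4385 CPM in wild-type cells inside. Cluster by cluster, for clusters with over 30 cells a side, Mmp3 was 2-fold lower in cluster 0, at 80.5 CPM in knockout and 259 CPM in wild-type cells. In cluster 2, where Mmp3 is also measured, it was at 86.6 CPM in knockout and 52.4 CPM in wild-type cells. Ccl11 was within 2-fold in cluster 2, which it leads, at 1320.4 CPM in knockout and 901 CPM in wild-type cells, and that cluster held 459 of the 1717 knockout and 58 of the 440 wild-type cells. In cluster 3 Ccl11 was 2-fold higher, at 254 CPM in knockout and 118 CPM in wild-type cells. Lox was 2-fold lower in clusters 2 and 3, with log2 ratios of -1.49 and -2.13, and within 2-fold in cluster 0, at -0.44. Mmp14 had log2 ratios of -1.34, -1.10, -0.78 and -1.25 in clusters 0, 1, 2 and 3; in cluster 11 its 15 knockout and 27 wild-type UMIs are together under the minimum. Col3a1 was 2-fold lower in cluster 3, the Pi16-led one, at 5175 CPM in knockout and 11254 CPM in wild-type cells, beside 2.06% of all genes lower there. It was also 2-fold lower in cluster 1, led by lining genes, at 884 and 1992 CPM (1.82% of genes), and within 2-fold in cluster 2, at 8845 and 9272 CPM. Clusters 1 and 11 had Bglap2, and Adipoq with Ibsp, among their leading genes, markers of bone and fat and none of fibroblasts. Without those clusters the interferon list had 17 of 25 and the collagen list 12 of 21 members 2-fold lower, beside 5.06% of genes higher and 7.77% lower.

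**Figure D3:**
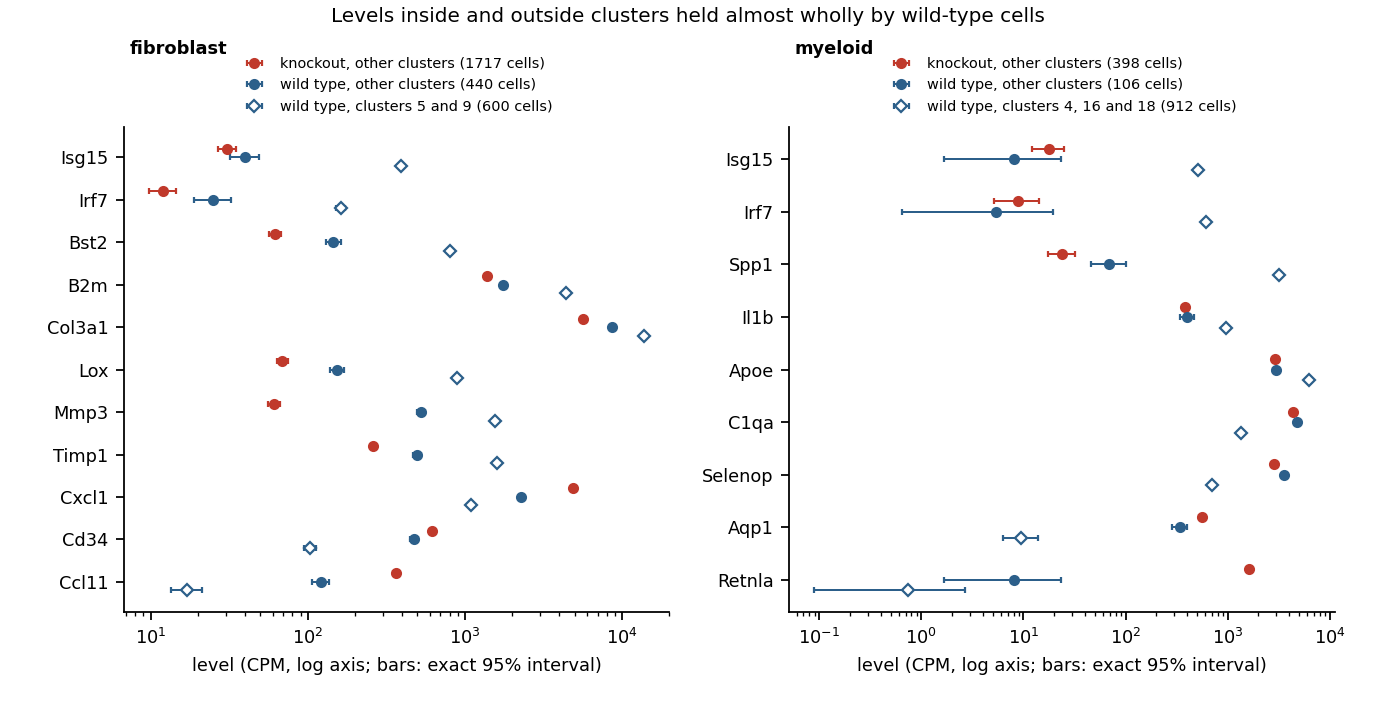
Levels (CPM, log axis) in knockout cells outside the named clusters (red), wild-type cells outside them (filled blue) and wild-type cells inside them (open blue), in fibroblasts (left; clusters 5 and 9) and myeloid cells (right; clusters 4, 16 and 18); bars are exact 95% Poisson intervals. Isg15 is at 30.7, 39.7 and 391 CPM in fibroblasts and at 17.7, 8.03 and 509 CPM in myeloid cells, while Mmp3 is at 61.0, 524 and 1546 CPM in fibroblasts.

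Myeloid cells of knockout joints had lower levels of interferon-stimulated and inflammatory genes and higher levels of resident macrophage genes. Of 7046 genes measured, 5.61% were 2-fold higher and 6.66% were 2-fold lower in knockout cells, 12.3% in all, with a median log2 ratio of 0.02. Hbb-bs was at 43.4 CPM in knockout myeloid cells and had no UMI in wild-type myeloid cells, and its part was not tested. Interferon-stimulated genes had 22 of 27 members lower and 0 higher, with a median of -2.36. Irf7 was at 15.1 CPM (10.4 to 21.05) in knockout and 537 CPM (511 to 563) in wild-type myeloid cells. Isg15 was at 25.3 CPM (19.1 to 32.7) in knockout and 449 CPM (425 to 473) in wild-type myeloid cells. Ifi44 had no UMI in knockout cells and was at 89.8 CPM (79.5 to 101) in wild-type cells, at least 67.6-fold lower. Cxcl10 was within 2-fold, at 43.0 CPM in knockout and 44.6 CPM in wild-type cells. The Ifi200 genes, a block of interferon-inducible DNA sensors, had 7 of 10 members lower, among them Ifi202b, with no UMI in knockout cells and 72.7 CPM in wild-type cells. Of the inflammatory list, 6 of 11 members were lower and 0 higher. Il1b, the interleukin 1 beta precursor, was at 376 CPM (351 to 402) in knockout and 898 CPM (865 to 932) in wild-type cells, and Clec4e, a pattern receptor, at 22.6 CPM (16.8 to 29.7) and 192 CPM (177 to 209). Tnf was within 2-fold, at 73.1 CPM in knockout and 49.1 CPM in wild-type cells.

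Resident macrophage genes had 7 of 15 members 2-fold higher and 0 lower, with a median of 0.90. C1qa, a chain of complement C1q, was at 3842 CPM (3762 to 3924) in knockout and 1765 CPM (1719 to 1813) in wild-type myeloid cells. Gas6, the bridge by which macrophages take up dying cells, was at 369 CPM (344 to 394) in knockout and 67.2 CPM (58.4 to 77.0) in wild-type cells. The receptors of Gas6 did not follow: Mertk was at 19.9 CPM in knockout and 20.7 CPM in wild-type cells, and Axl at 46.5 and 91.1 CPM. Retnla, a marker of interleukin 4 responses, was at 1446 CPM (1397 to 1496) in knockout cells and had 5 UMIs or 1.61 CPM (0.524 to 3.77) in wild-type cells. It was found in 67 knockout cells. Ccl17, a T-cell attractant, was at 501 CPM (473 to 532) in knockout and 4.84 CPM (2.71 to 7.99) in wild-type cells. Arg1, another gene of alternative activation, had no UMI in knockout cells and was at 63.3 CPM in wild-type cells, at least 47.6-fold lower.

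Matrix and bone genes of myeloid cells had 7 of 11 members lower and 1 higher. Acp5, the acid phosphatase of osteoclasts, was at 15.9 CPM (11.2 to 22.1) in knockout and 256 CPM (239 to 275) in wild-type cells. Ctsk, the osteoclast protease cathepsin K, was at 42.5 CPM (34.4 to 51.9) in knockout and 217 CPM (201 to 234) in wild-type cells. The higher member was Mmp12, macrophage elastase, at 27.9 CPM (21.4 to 35.7) in knockout and 3.23 CPM (1.55 to 5.94) in wild-type cells. Spp1, the secreted phosphoprotein osteopontin, was at 27.5 CPM (21.1 to 35.2) in knockout and 2805 CPM (2746 to 2864) in wild-type cells. After thinning to 2000 UMIs, Spp1 was in 3.59% of knockout and 37.7% of wild-type myeloid cells (7.63% and 52.7% unthinned), beside 2.17% of knockout and 18.6% of wild-type fibroblasts. MHC class II genes were 0 higher and 1 lower of 8, and Cd74, their chaperone, was at 25380 CPM in knockout and 17959 CPM in wild-type cells. Among genes picked by ratio alone, Msmp and Mucl1 were high in knockout cells through 1 and 10 cells, and Aqp1, a water channel, was at 489 CPM in knockout and 49.4 CPM in wild-type cells.

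The myeloid subtypes were in another mix. The Lyve1 gate, of resident macrophages, held 42.6% of knockout myeloid cells (38.1 to 47.2) and 4.72% of wild-type myeloid cells (3.50 to 6.20). The Cd209a gate held 26.5% of knockout (22.6 to 30.7) and 6.39% of wild-type cells (4.96 to 8.07). The Ly6c2 monocyte gate held 6.36% of knockout (4.33 to 8.95) and 37.9% of wild-type cells (34.9 to 41.0). The Trem2 gate held 9.96% of knockout (7.41 to 13.02) and 19.0% of wild-type cells (16.6 to 21.5). All 4 pairs of intervals are apart. For the 7 resident macrophage genes past 2-fold, the part within gates was over 50% for 0 of 7, with a median of 20.1% of the difference. C1qa shows this: in the Lyve1 gate it was at 7111 CPM in knockout and 6445 CPM in wild-type cells, and in the Ly6c2 gate at 289 and 526 CPM.

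For interferon-stimulated genes the myeloid split came out otherwise, with a median of 67.4% within gates and 55.3% within clusters. Members 2-fold lower in knockout cells were 17 of 20 in the Ly6c2 gate, where 14.3% of all genes were lower, 3 of 4 in the Cd209a gate (5.57%), 3 of 6 in the Trem2 gate (6.73%), 0 of 1 in the Lyve1 gate (1.41%) and 4 of 4 in ungated cells (12.0%). Resident macrophage genes 2-fold higher numbered 1 in the Ly6c2 gate (5.2% of all genes higher there), 0 in the Cd209a gate (5.57%), 3 in the Trem2 gate (5.02%), 1 in the Lyve1 gate (3.4%) and 1 in ungated cells (4.24%). The myeloid gates also held different clusters in each library: the leading cluster of the Trem2 gate was cluster 6 in knockout (68.1% of its cells) and cluster 4 in wild-type cells (88.6%), and that of the Cd209a gate cluster 7 (80.8%) and cluster 18 (36.9%). Cluster 16 led the Ly6c2 gate (80.0% of knockout and 64.5% of wild-type cells) and cluster 6 the Lyve1 gate in both libraries. In the Ly6c2 gate Irf7 was at 98.9 CPM (52.6 to 169) in knockout and 858 CPM (807 to 912) in wild-type cells. In the Trem2 gate Irf7 was at 23.8 CPM (7.74 to 55.6) in knockout and 404 CPM (352 to 463) in wild-type cells. In the Lyve1 gate Irf7 had 11 UMIs in knockout cells and 1 UMI in wild-type cells. Spp1 was lower in knockout cells of every gate, with 14.3 CPM in knockout and 4114 CPM in wild-type cells of the Trem2 gate and 137 and 3379 CPM in the Ly6c2 gate. Il1b was at 221 CPM in knockout and 1262 CPM in wild-type cells of the Ly6c2 gate.

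As in fibroblasts, a few clusters held most wild-type cells. Clusters 4, 16 and 18 held 74 of 472 knockout and 912 of 1018 wild-type myeloid cells. Over all 6 libraries they were led by Ms4a7 and Trem2, by Plac8 and Ly6c2, and by Ccl22, Ifitm1 and Ccl17. The isotype library had 397, 45 and 51 cells in them. In finer clustering, at Leiden resolution 2, a cluster led by Ccl22 and Ccl17 held 7 knockout and 12 wild-type cells. Another myeloid cluster, led by Ifitm1, Msmp and Cd7, held 16 knockout and 106 wild-type cells. Leaving out clusters 4, 16 and 18 kept 398 knockout and 106 wild-type cells. Among 4578 genes measured in these cells, 2.64% were 2-fold higher and 1.77% lower in knockout cells. The interferon list then had 0 higher and 0 lower of 5 measured members, and the resident list 1 higher and 0 lower of 15. Isg15 was at 17.7 CPM in knockout and 8.03 CPM in wild-type cells outside these clusters, and at 68.7 and 509 CPM inside them. C1qa was at 4364 CPM in knockout and 4798 CPM in wild-type cells outside them. Retnla stayed apart outside them, at 1628 CPM in knockout and 8.03 CPM in wild-type cells. Cluster 6 alone, led by Vsig4 and Lyve1, had Retnla at 404 CPM (366 to 445) in knockout and 12.5 CPM (2.59 to 36.6) in wild-type cells.

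**Figure D4:**
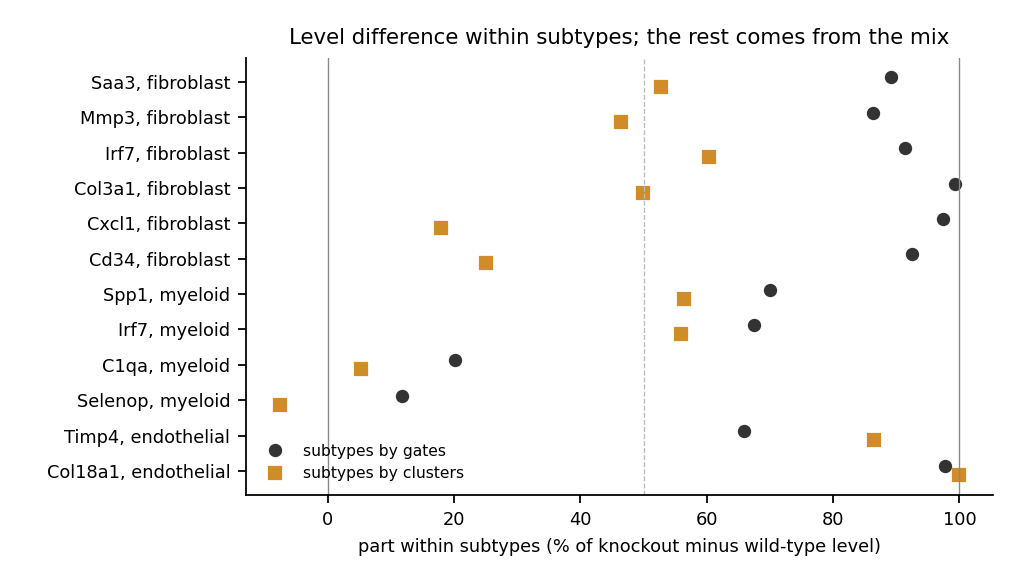
Part of the level difference (knockout minus wild type, in percent) that lies within subtypes, for subtypes by gates (dark circles) and by clusters (orange squares); the remainder comes from the mix of subtypes. Saa3 in fibroblasts is at 89.1% by gates and 52.8% by clusters, C1qa in myeloid cells at 20.1% and 5.26%, and Col18a1 in endothelial cells at 97.7% and 99.98%.

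Endothelial cells showed another pattern: basement-membrane genes were lower in knockout cells, and interferon-stimulated and MHC genes were not lower as lists. Of 3739 genes measured, 8.75% were 2-fold higher and 8.8% were 2-fold lower, with a median log2 ratio of -0.13. Fibroblast markers moved with the groups: 5 of 5 measured were 2-fold higher in knockout endothelial cells, and all 7 summed to 2744 CPM in knockout and 625 CPM in wild-type cells, with no marker at 0. Lymphatic markers went the other way, summing to 16.3 CPM in knockout cells, where 4 of 5 were at 0, and 2335 CPM in wild-type cells. Dissociation stress genes were 2-fold higher for 10 of 18. Their part in the differences below was not tested.

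Of 15 basement-membrane and microfibril genes, 9 were 2-fold lower and 2 higher in knockout endothelial cells, with a median of -1.26. Col18a1, the collagen from which endostatin is cut, was at 30.8 CPM (17.9 to 49.3) in knockout and 575 CPM (523 to 632) in wild-type cells. Col4a1, a chain of the main basement-membrane collagen, was at 172 CPM (139 to 210.5) in knockout and 894 CPM (829 to 964) in wild-type cells. Col15a1 was at 105 CPM (79.8 to 136) in knockout and 727 CPM (668 to 790) in wild-type cells. Nid1 was within 2-fold, at a log2 ratio of -0.48. By gates and by clusters the lower levels lay mostly within subtypes, but few wild-type cells stand behind some gates. The capillary gate held 9 and the arterial gate 15 wild-type endothelial cells, both under 30. Col18a1 was lower in all 4 endothelial gates, the ungated cells counted as 1. In the venous gate Col18a1 was at 7.64 CPM (0.193 to 42.5) in knockout and 616 CPM (534 to 707) in wild-type cells. In cluster 8, led by capillary genes, it was at 38.9 CPM in knockout and 561 CPM in wild-type cells. In cluster 15, led by venous genes, Col18a1 was at 12.1 and 589 CPM. Cluster 8 need not be 1 subtype. Finer clustering, at Leiden resolution 2, gave a capillary cluster led by Aqp7, Car4 and Timp4, with 118 knockout and 4 wild-type cells. Another endothelial cluster, led by Gkn3, Fam167b and Podxl, held 67 cells of each library. The part of such a mix in the cluster 8 values was not tested.

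Of 11 measured genes of capillaries and sprouting tip cells outside the gate, 4 were 2-fold higher and 4 lower in knockout endothelial cells, with a median of 0.54. Apln, a peptide of sprouting tip cells, had 2 UMIs or 3.63 CPM (0.439 to 13.1) in knockout cells and was at 139 CPM (113 to 168) in wild-type cells. Angpt2, which destabilises vessels, was at 12.7 CPM in knockout and 73.2 CPM in wild-type cells. Fabp4, a fatty-acid carrier of capillaries, was at 21026 CPM in knockout and 3740 CPM in wild-type cells. Timp4, a metalloproteinase inhibitor, was at 743 CPM (673 to 819) in knockout and 11.8 CPM (5.38 to 22.3) in wild-type cells. The capillary gate held 46.7% of knockout endothelial cells (40.2 to 53.2) and 6.67% of wild-type cells (3.09 to 12.3). The venous gate held 17.9% of knockout and 37.8% of wild-type cells. Of the Timp4 difference, 65.8% lay within gates and 86.4% within clusters, and 41.0% within gates with wild type as the base. Timp4 was a leading gene of the finer capillary cluster above, so the part within clusters may still hold a mix. Ccl21a and Glycam1, genes of lymphatic vessels and of lymph-node venules, had no UMI in knockout cells, while 1700 and 183 wild-type UMIs lay in 11 cells each.

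Interferon-stimulated genes had 6 of 16 members higher and 3 lower in knockout endothelial cells, with a median of 0.76. Isg15 was at 395 CPM (344 to 451) in knockout and 166 CPM (138 to 198) in wild-type cells, the opposite order to that in fibroblasts and myeloid cells. Irf7 kept that order, at 83.4 CPM in knockout and 170 CPM in wild-type cells. MHC class I genes had 7 of 13 members higher and 0 lower. The higher Isg15 level was seen in cluster 8, at 526 CPM (456 to 604) in knockout and 175 CPM (136 to 222) in wild-type cells. As said above, cluster 8 need not be 1 subtype. In cluster 15 Isg15 was at 90.4 CPM (50.6 to 149) in knockout and 157 CPM (120 to 202) in wild-type cells, with intervals that overlap. Notch targets had 4 of 6 members higher and 1 lower in knockout endothelial cells, in which Notch3 had no UMI in either library. Hes1 was at 656 CPM in knockout and 318 CPM in wild-type cells, and Hey1 at 87.0 and 23.5 CPM. Of the 5 Notch targets past 2-fold, 4 differed mostly within gates, with a median of 68.0% of the difference and a lowest value of 41.5%. By clusters the median was 77.7%. The arterial gate held 48 of 240 knockout and 15 of 135 wild-type endothelial cells.

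Mural cells and lymphocytes were few. The 33 knockout and 12 wild-type mural cells had 71416 and 73743 UMIs in all. In them Rgs5, a defining gene of pericytes, was at 1932 CPM (1623 to 2283) in knockout and 7987 CPM (7355 to 8659) in wild-type cells, and Acta2, smooth-muscle actin, at 1680 and 3905 CPM. Both are markers that named the class. The 42 knockout and 73 wild-type T and NK cells had 2.19% of 777 genes 2-fold higher and 11.8% lower in knockout cells. Gzma, a protease of cytotoxic cells, was at 602 CPM in knockout and 181 CPM in wild-type cells. Tnfrsf4, a receptor of activated T cells, was at 88.2 CPM in knockout and 1263 CPM in wild-type cells, and Tnfrsf9, another, at 56.1 and 849 CPM. Of 6 measured markers that named the class, 4 were 2-fold lower and 1 was higher in knockout cells. Nkg7, 1 of those markers, was among the genes with the highest ratios. The mix of T and NK cells within the class was not tested. Myeloid markers summed to 1283 CPM in knockout and 4207 CPM in wild-type cells of this class, with Adgre1 at 0 in knockout cells, and their part was not tested.

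Levels in the other libraries set the 2 arthritic libraries in a range. In fibroblasts Saa3 was at 7.22 CPM in arthritic knockout and 1471 CPM in arthritic wild-type cells, at 8.41 CPM under anti-Notch3 and 664 CPM under isotype, and at 1.11 CPM in healthy knockout and 2.86 CPM in healthy wild-type cells. Mmp3 was at 65.4 and 1219 CPM, at 72.4 and 895 CPM, and at 43.5 and 281 CPM in the same order. Isg15 was at 30.5 and 279 CPM, at 63.9 and 86.6 CPM, and at 28.6 and 19.5 CPM. For Saa3, Mmp3 and Isg15 the arthritic knockout level lay closer to the healthy levels than to the arthritic wild-type level. Col3a1 was at 5689 CPM in arthritic knockout fibroblasts, below its levels of 7244 CPM in healthy knockout and 12021 CPM in healthy wild-type fibroblasts.

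The isotype library also differed from the wild-type library, both arthritic with Notch3 not targeted. Its comparison shares the wild-type library with the one above, so the values stand side by side only. Of interferon-stimulated genes in fibroblasts, 18 of 26 were 2-fold lower in knockout and 16 were lower in isotype cells, each against wild type, with medians of -2.21 and -1.29. Of all genes in that comparison, 3.44% were 2-fold lower and 1.79% higher in isotype fibroblasts. In myeloid cells 22 of 27 members were lower in knockout and 18 in isotype cells, where 3.99% of genes were lower. The collagen list in fibroblasts had 13 members lower in knockout cells, and 3 higher and 0 lower in isotype cells, with medians of -1.10 and 0.41. The matrix-degrading list had 10 members lower in knockout and 2 in isotype fibroblasts. Basement-membrane genes of endothelial cells had 9 of 15 members lower in knockout cells and 0 of 14 in isotype cells, where 1.55% of genes were lower. The interferon list was thus lower than in wild type in both of these libraries, and the collagen list had members past 2-fold in opposite directions.

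**Figure D5:**
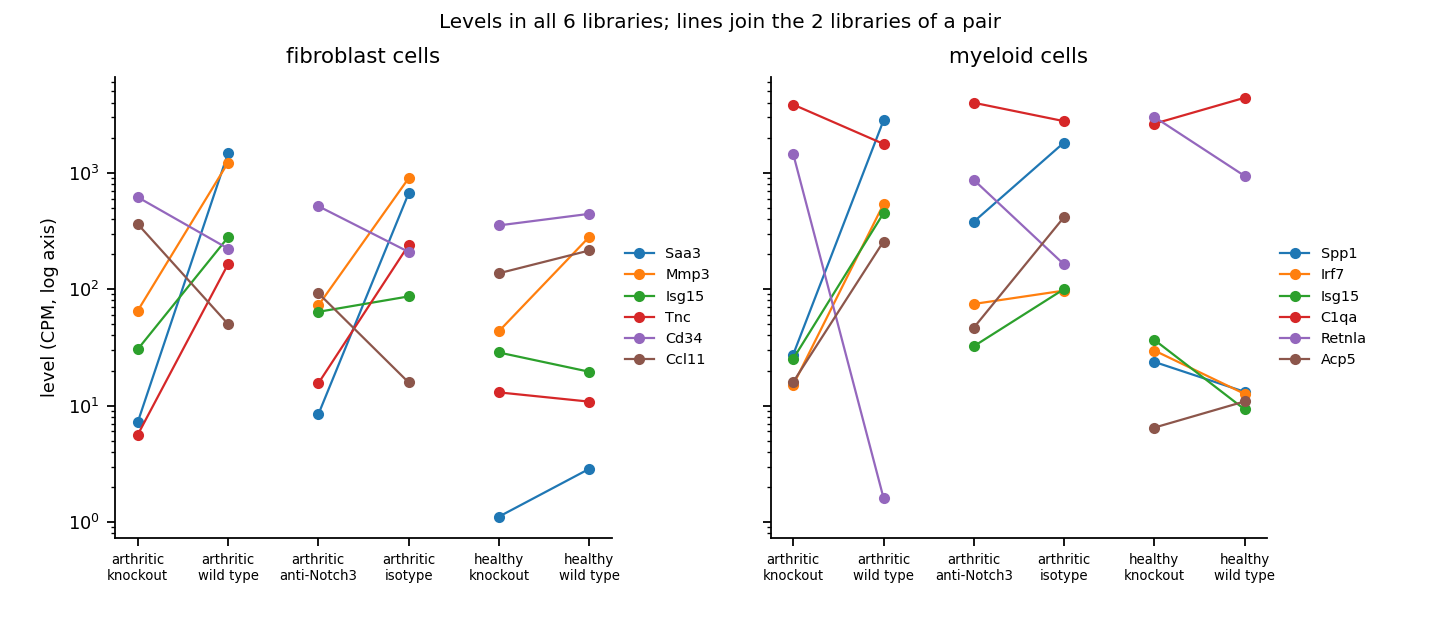
Levels (CPM, log axis) of 6 genes in fibroblasts (left) and 6 genes in myeloid cells (right) in all 6 libraries; lines join the libraries of a pair. Saa3 in fibroblasts is at 7.22 CPM in arthritic knockout and 1471 CPM in arthritic wild-type cells, and Irf7 in myeloid cells is at 15.1 and 537 CPM.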

How the data were processed

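Each group is 1 single-cell library (10x Genomics 3' method) of synovium pooled from 10 mice. The authors deposited raw UMI counts per gene and barcode, and Cell Ranger 3.0.2 and mm10 are listed in their processing notes per the labels. All deposited barcodes of both libraries held at least 501 genes and under 20% mitochondrial UMIs; no source used here gives the authors' cell filter. Barcodes with over 10% mitochondrial UMIs were left out, 10 of 2666 in the knockout and 56 of 2452 in the wild-type library. The libraries shared 5 barcodes.

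Cells of all 6 libraries were clustered together with scanpy 1.11.5 (2000 variable genes, 30 components, 20 neighbours) and Leiden at resolution 1 (leidenalg 0.10.2). Notch and stress genes, and those of sex chromosomes, haemoglobin, mitochondria, ribosomes and gene predictions, did not enter the clustering. Clusters were named by marker panels, and dendritic cells count as myeloid. Scrublet at a rate of 0.03 marked 23 knockout (0.866%) and 11 wild-type cells (0.459%) as doublets, which were kept. Gates use the mean standardised level of a panel with a cut of 0.25, and gate genes are not read out. Counts were summed per library and class. Log2 ratios add 0.5 UMIs, and a gene is measured at 50 UMIs over both libraries. The split into mix and within parts weights both libraries equally. Ratios, intervals and the split were tested on simulated data, with Python 3.11.15 and scipy 1.17.1.

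Named genes are Notch3, per class the 8 (fibroblast, myeloid) or 5 highest and lowest ratios among genes with at least 100 UMIs and 10 CPM in the higher library, list members past 2-fold or with at least 100 UMIs, and genes 4-fold apart in at least 4 classes; some items that meet the rule are not reported here. The comparison, the members and the lists were chosen with earlier results of these data known. Alternatives tried were other mitochondrial limits, clusterings, UMI minimums, pseudocounts, scalings and gates, and left-out doublets and clusters.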

Additional observations from a re-analysis of the deposited data

Results flagged for a closer look

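Differences between knockout and wild type that had opposite signs in arthritic and healthy joints are given here; with 1 library a group, the difference between the pairs was not tested. The B-cell share was 2.97 percentage points higher in knockout than in wild-type cells of arthritic joints (3.01% in knockout and 0.0417% in wild type), and the difference was -2.67 points in healthy joints (0.28% in knockout and 2.95% in wild type). The lining genes outside the gate had a median log2 ratio of -1.19 in myeloid cells of arthritic joints and 3.75 in healthy joints. The chemokines for monocytes and lymphocytes had a median log2 ratio of 3.99 in endothelial cells of arthritic joints and -1.22 in healthy joints. Both arthritic medians rest on 5 measured members. Of these, 0 were 2-fold higher and 3 lower in myeloid cells, and 4 higher and 1 lower in endothelial cells. Lining genes are genes of fibroblasts, and cluster 1, led by lining genes, held 873 healthy knockout and 95 healthy wild-type cells. The part of fibroblast RNA in these medians was not tested.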

How the results depend on the processing

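With 1 pooled library a side, no value has a replicate check, and depth limits precision most in endothelial, T and NK and mural cells. No paired analysis was possible because each group has 1 library. Of 29 alternatives for the class shares, 26 kept direction and stayed within counting error. At most 5% mitochondrial UMIs moved the knockout minus wild-type difference to 24.4 points for fibroblasts (21.6 in the report) and -27.5 for myeloid cells (-24.7), and the neutrophil difference reversed to 0.657 points with the definition by S100a8 and S100a9 (-2.74 by cluster). Of 156 alternatives for single named genes, 0 reversed, and 9 moved, all with the mean of each cell's share in place of summed counts. The cause was not tested. Other kinds of result were less stable, though 0 reversed. The mix and within parts moved in 21 of 22 alternatives. Counts of list members moved in 39 of 79, and counts of genes past 2-fold in 20 of 54.

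Counts of genes past 2-fold depend on the UMI minimum by construction. At 1 UMI, higher and lower genes numbered 2311 and 2617 in fibroblasts, 2550 and 2397 in myeloid, 2771 and 2563 in endothelial, and 2302 and 3055 in T and NK cells. At 200 UMIs they numbered 229 and 277, 129 and 207, 101 and 76, and 1 and 11 in the same order. Without clusters 5 and 9, fibroblasts had 176 and 231, and without clusters 4, 16 and 18 myeloid cells had 121 and 81.

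List counts moved most without the clusters held almost wholly by wild-type cells and in single gates. In a gate fewer genes reach the minimum of 50 UMIs, so a lower count there need not be a smaller part of the list. For the interferon list, the members measured in each gate and the shares of all genes are given above. For the other lists the members measured in single gates are not given, so those counts cannot be read as parts of a list. What else moved the counts was not tested. Lower interferon members in fibroblasts (18) were 4 of 19 measured without clusters 5 and 9, where 2.51% of all genes were lower and 1.91% higher. They were 3 in the Pi16, 7 in the Sfrp4, 10 in the Smoc2 and 4 in the lining gate. The tendon-like gate had 1 and ungated cells had 11. Collagen-list members (13) were 7 of 21 measured without clusters 5 and 9. Matrix-degrading members (10) were 3 of 15 measured without those clusters. They were 4 in the Pi16, 3 in the Sfrp4, 4 in the lining and 5 in the tendon-like gate, and 4 in ungated cells. MHC class I members (7) were 0 of 11 measured without those clusters, 2 in the Pi16, 1 in the Smoc2 and 0 in the tendon-like gate. Stress members higher in fibroblasts (5) were 1 of 18 measured without those clusters. They were 11 in the Dkk2 gate, where 7.93% of all genes were higher. In the Pi16 gate they were 2 (2.79%), in the Sfrp4 gate 1 (5.08%), in the Smoc2 gate 2 (3.88%) and in the lining gate 0 (3.04%). The tendon-like gate had 2 (4.69%) and ungated cells had 8 (6.83%). Lower interferon members in myeloid cells (22) were 11 at 200 UMIs. Without clusters 4, 16 and 18 they were 0 of 5 measured, where 1.77% of all genes were lower and 2.64% higher. They were 3 in the Cd209a, 0 in the Lyve1 and 3 in the Trem2 gate, and 4 in ungated cells. Resident members higher (7) were 1 of 15 measured without those clusters. They were 0 in the Cd209a, 1 in the Ly6c2, 1 in the Lyve1 and 3 in the Trem2 gate, and 1 in ungated cells. Lower basement-membrane members in endothelial cells (9) were 5 at 200 UMIs.

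The part within subtypes (gates, both libraries weighted equally, in parentheses) was, with clusters and then with wild type as the base, 52.8% and 100.2% for Saa3 (89.1%), 46.5% and 99.8% for Mmp3 (86.2%), 49.9% and 98.0% for Col3a1 (99.3%), 60.4% and 101.7% for Irf7 (91.3%) and 25.1% and 96.5% for Cd34 (92.5%) in fibroblasts. Cxcl1 was at 17.9% with clusters (97.4%). In myeloid cells the values were 56.4% and 98.4% for Spp1 (70.0%), 55.8% and 94.0% for Irf7 (67.4%) and 5.26% and 19.1% for C1qa (20.1%). In endothelial cells they were 86.4% and 41.0% for Timp4 (65.8%) and 99.98% and 100.2% for Col18a1 (97.7%).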

Other observations

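A few genes were apart in most classes at once, counting classes in which a gene had at least 20 UMIs over both libraries. Bst2 and Isg15 were lower by 4-fold or more in knockout cells of 6 of 7 classes, and Lgals3bp, a secreted glycoprotein, in 5. Spp1 was lower by 4-fold or more in all 6 classes in which it was counted. In mural cells, where it had under 20 UMIs, its log2 ratio was -2.28. Isg15 was higher in endothelial cells, at a log2 ratio of 1.25. Cd36, a fatty-acid receptor, was higher by 4-fold or more in knockout cells of 5 classes; it is one of the genes of the capillary gate. Transcripts of 1 class were also found at low levels in others, as Spp1 in 18.6% of wild-type fibroblasts after thinning to 2000 UMIs, and the part of free RNA was not tested.

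Over all cells, 6 genes were at least 5-fold higher in both wild-type libraries, arthritic and healthy, than in each of the other 4, and 0 genes were lower in that way. Ifi202b had no UMI in arthritic knockout cells and was at 48.0 CPM in arthritic wild-type cells. It was at 0.0412 CPM in healthy knockout and 35.7 CPM in healthy wild-type cells. Under anti-Notch3 Ifi202b had no UMI, and under isotype it was at 0.0485 CPM. Hal, which breaks down histidine, was at 0.421 CPM in arthritic knockout and 17.1 CPM in arthritic wild-type cells, at 0 and 71.4 CPM in healthy knockout and wild-type cells, and at 0.173 CPM under anti-Notch3 and 0.194 CPM under isotype. Gbp2b, a guanylate-binding protein, was at 0 and 10.8 CPM in arthritic knockout and wild-type cells and at 0 and 6.94 CPM in healthy knockout and wild-type cells. Gbp2b was at 0.173 CPM under anti-Notch3 and had no UMI under isotype. Ifi202b is known to differ in level between inbred strains of mice. The strains of the groups are not given in the sources used here, and the part of strain in any difference was not tested.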
